A study of Mus musculus with 6 samples.

Results

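Prostaglandins are lipid signals made from arachidonic acid. Cytosolic phospholipase A2 (Pla2g4a) frees arachidonic acid from membranes, the cyclooxygenases Ptgs1 (COX-1) and Ptgs2 (COX-2) turn it into prostaglandin H2, and Ptges makes prostaglandin E2 from that. The transporter Slco2a1 carries prostaglandins into cells, where 15-hydroxyprostaglandin dehydrogenase (Hpgd) starts their breakdown, and Ptger1 to Ptger4 encode the EP receptors for prostaglandin E2. In the colon, Ptgs2 is known as an enzyme that is raised in many tumors and Hpgd as an enzyme that is often lost in them.

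RNA-seq was used to compare primary colon tumor cells, kept in culture, with a transgene for the Pak inhibitor domain (PID+) and without it (PID-). PID is a peptide from Pak1 that blocks the Group I Pak kinases. The 10 genes described here are those for synthesis, breakdown and reception of prostaglandin E2, out of 21966 genes in the deposited table. They were chosen by name with the measured FPKM of the same PID+ and PID- comparison known, Hpgd for its low value in PID+. All values below are therefore a description, with no test. All 10 genes were found, and 9 of them reached an FPKM of 2 in PID+ or PID-, Ptger2 being the exception.

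PID- cells came from tumors of CDX2P-NLS-Cre;APC Δ/+ mice, in which a Cre transgene under a CDX2 promoter deletes a floxed Apc exon, mainly in the epithelium of the large and distal small intestine. The mice of PID+ cells shared the Cre and the Apc allele and had, in addition, the ROSA26-PID allele, a GST-PID fusion with an eGFP reporter behind a stop that Cre removes. The Cre and Apc strains were on C57BL6/J, and the cells of both groups were kept in RPMI-1640 with serum. The sample labels name 3 mice per group, numbered 1, 2 and 3 for PID- and 4, 7 and 26 for PID+, and they call the PID- samples normal and untreated, although the methods describe tumor cells. The mouse numbers of PID+ are those the paper gives for its PID+ cells, while those of PID- are not the ones it gives for its PID- cells. The methods speak of replicated sequencing runs, so it is not settled whether the 3 sets of reads per group are 3 mice. The sample labels give no age. The table has no row for the transgene, and the labels could not be checked on it.

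The table holds a single value per gene for each group, as FPKM (fragments scaled to transcript length and to the number of fragments in the library), made from the pooled reads. No spread between mice can be computed. Beside each FPKM stands the deposited confidence interval, which covers the error model of CuffDiff and not the differences between mice. Fold changes are given as log2((FPKM in PID+ + 1)/(FPKM in PID- + 1)). They understate the change of genes with a low FPKM.

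Hpgd (ENSMUSG00000031613.8, chr8:56294585-56321043 on the plus strand, GRCm38) had the largest difference of the 10 genes. Its FPKM was 41.5 in PID- (interval 15.9 to 67.2). In PID+ it was 0.0667 (interval 0 to 0.204). It was the second highest of the 10 genes in PID- and stood above only Ptger3 and Ptger2 in PID+, and the intervals were apart. The log2 change was -5.32, which placed Hpgd at rank 6 of 21959 genes ordered from the most negative change.

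The low value of Hpgd in PID+ was not an absence of reads. In genes with a single annotated transcript, FPKM multiplied by transcript length falls on steps, each the worth of 1 read or read pair. With 190 bases taken off the length, 89.4% of 912 low values in PID+ and 90.8% of 835 in PID- lay within 0.1 of a whole number of steps. The correction and the steps were chosen to make these shares as large as possible, so the shares are no separate check. A step in PID+ was 1.37 times the step in PID-. Hpgd has 1 transcript in the annotation, and its FPKM corresponds to an estimated 7 reads in PID+ and 5862 reads in PID-. The FPKM in PID- was 623-fold that in PID+, with a 95% counting interval of 296 to 1520. This interval takes the estimated reads and the steps as known, and covers counting error only. The deposited intervals, with bounds of 15.9 in PID- and 0.204 in PID+, allow a fold below 296. As Hpgd was chosen for its low value in PID+, nothing is read from the counting interval. No other annotated gene shares exon bases with Hpgd.

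Of the 10 genes, Hpgd and Ptger3 were at least 3-fold lower in PID+, on FPKM + 1. Among the 11035 genes that reached an FPKM of 2 in either group, and so could reach 3-fold, 377 (3.42%) were at least 3-fold lower. 0 of the 10 were at least 3-fold higher, against 229 genes (2.08%). Only Hpgd had deposited intervals that were apart, against 119 genes (0.542%) lower and 41 (0.187%) higher among all 21959. Since the 10 genes were selected on this same comparison, nothing is read from these shares. With FPKM scaled to equal Gapdh, which was 2570 in PID+ and 1666 in PID-, the median log2 change of all genes that could reach 3-fold moved by -0.57. The 3-fold calls then became 662 lower and 76 higher, in place of 377 and 229.

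**Figure D1:**
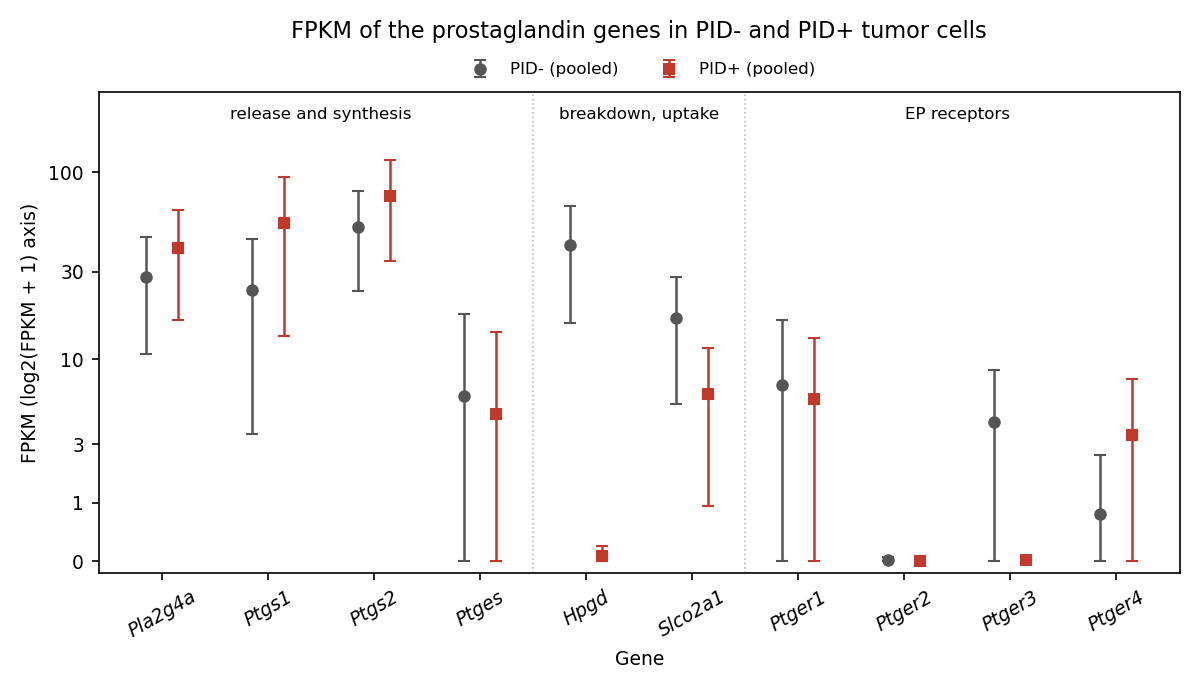
FPKM of the 10 prostaglandin genes, on a log2(FPKM + 1) axis, in PID- (grey circles) and PID+ (red squares). Points are the pooled values and bars the deposited confidence intervals; only the bars of Hpgd do not overlap, at 41.5 in PID- and 0.0667 in PID+.

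Of the genes for release and synthesis, Pla2g4a, Ptgs1 and Ptgs2 stood above Ptges and the receptors by FPKM in both groups. Pla2g4a (ENSMUSG00000056220.11, chr1:149829618-149961290, minus strand) had an FPKM of 28.3 (10.7 to 45.9) in PID- and of 40.0 in PID+ (16.5 to 63.5). Ptgs2 (ENSMUSG00000032487.8, chr1:150100031-150108227, plus strand) had 52.1 in PID- (23.8 to 80.4) and 75.2 in PID+ (34.5 to 115.9). Ptgs2 was the most abundant of the 10 genes by FPKM in both groups. The intervals of PID- and PID+ overlapped for both genes. The log2 changes were 0.48 for Pla2g4a and 0.52 for Ptgs2, and with equal Gapdh they became -0.12 and -0.10, so that no direction can be given for either gene without naming the scaling. These genes lie next to each other on chromosome 1, with 138740 bases and 0 annotated protein-coding genes between them.

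Ptgs1, the cyclooxygenase made in most tissues without induction, had a larger difference than Ptgs2. Its FPKM (ENSMUSG00000047250.10, chr2:36230426-36252272, plus strand) was 24.1 in PID- (3.54 to 44.7) and 54.2 in PID+ (13.5 to 94.8), a log2 change of 1.13 with overlapping intervals. The direction was the same under each scaling, down to 0.52 with equal Gapdh. The summed FPKM of Ptgs1 and Ptgs2, as deposited, was 76.3 in PID- and 129 in PID+. The sum was not computed with equal Gapdh, where the log2 change of Ptgs2 was -0.10. Ptgs2 stood at 2.16 times Ptgs1 in PID- and at 1.39 times in PID+.

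Ptges, the inducible synthase of prostaglandin E2, was the lowest of the genes for release and synthesis. Its FPKM (ENSMUSG00000050737.13, chr2:30889471-30929863, minus strand) was 6.11 in PID- (0 to 17.7) and 4.75 in PID+ (0 to 14.2). The log2 change was -0.31, and both intervals reached 0. Ptges3, a cochaperone of Hsp90 that also has prostaglandin E synthase activity, was far more abundant, at 129 in PID- and 144 in PID+. Ptges2 stood at 19.6 in PID- and 17.3 in PID+.

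Slco2a1, the prostaglandin transporter, was lower in PID+ along with Hpgd. The FPKM of Slco2a1 (ENSMUSG00000032548.11, chr9:102988712-103096002, plus strand) was 16.8 in PID- (5.49 to 28.2) and 6.27 in PID+ (0.916 to 11.6). The intervals overlapped, and the log2 change of -1.29 did not reach 3-fold. With equal Gapdh it was -1.82, past 3-fold. The enzymes after Hpgd in the pathway showed smaller differences. The summed FPKM of the prostaglandin reductases Ptgr1, Ptgr2 and Zadh2 was 57.1 in PID- and 51.7 in PID+, a ratio of 0.907. Within PID-, the FPKM of Ptgs2 was 1.25 times that of Hpgd, with overlapping intervals. Within PID+ it was 1127 times, with intervals apart and only an estimated 7 reads behind the value of Hpgd.

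The EP receptors were all at low levels. Ptger1 is given no place in their order, as its value is uncertain. The order of the others was Ptger3, Ptger4 and Ptger2 in PID- and Ptger4, Ptger3 and Ptger2 in PID+. The intervals of neighbours in this order overlapped in both groups. Ptger3, whose receptor EP3 mainly lowers cAMP through Gi, stood at an FPKM of 4.20 in PID- (0 to 8.65) and 0.0129 in PID+ (0 to 0.0454). Its log2 change was -2.36 (ENSMUSG00000040016.13, chr3:157566892-157645888, plus strand). The deposited intervals overlapped. The value in PID+ corresponds to about 3 reads with the longest of its 3 transcripts and to fewer with the shortest, so no fold change of FPKM without the added 1 is given.

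Ptger4, whose receptor EP4 raises cAMP through Gs, went the other way in FPKM. It had 0.741 in PID- (0 to 2.52) and 3.49 in PID+ (0 to 7.73), with overlapping intervals (ENSMUSG00000039942.12, chr15:5206661-5244187, minus strand). The log2 change was 1.37, the highest of the 10 genes, and positive under each scaling. Ptger3 stood above Ptger4 in PID- and below it in PID+, with overlapping intervals in each group. Ptger2 (ENSMUSG00000037759.5, chr14:44988195-45003820, plus strand), whose receptor EP2 also couples to Gs, was listed at 0 in PID+ and at an FPKM of 0.0182 in PID-, the worth of about 6 reads.

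Ptger1 (ENSMUSG00000019464.5, chr8:83666678-83672753, plus strand) stood at an FPKM of 7.10 in PID- (0 to 16.5) and 5.86 in PID+ (0 to 13.1). The log2 change was -0.24, both intervals reached 0, and the value is uncertain. Ptger4 shares 15.3% of its exon bases with the pseudogene Gm15937 on the opposite strand. It also shares 1.23% with Ttc33, which stood at 11.4 in PID- and 11.9 in PID+. Of the exon bases of Ptger2, 4.74% are shared with Gm17173 and 2.77% with Gm49364. Ptgs1 shares 3.81% with Gm43621, and Slco2a1 shares 0.768% with n-R5s89. Of these overlapping genes, only Ttc33 has a row in the table. The library kit does not mark the strand, so reads of these genes cannot be told apart where they overlap.

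With Ptger1 left out, the order of FPKM in PID- was Ptgs2, Hpgd, Pla2g4a, Ptgs1, Slco2a1, Ptges, Ptger3, Ptger4 and Ptger2. The intervals of all 8 pairs of neighbours in this order overlapped. In PID+ the order was Ptgs2, Ptgs1, Pla2g4a, Slco2a1, Ptges, Ptger4, Hpgd, Ptger3 and Ptger2. There, 7 of the 8 pairs overlapped, and Pla2g4a stood apart from Slco2a1. The median log2 change of the 9 genes that reached an FPKM of 2 was -0.24, with 5 below 0 and 4 above. That median is the value of Ptger1, and without Ptger1 the median of the other 8 was 0.09, with 4 below 0 and 4 above. The median of all 11035 such genes was -0.01. The 9 genes passed this filter in part through the group where they were high, so the median is no measure of a common shift.

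**Figure D2:**
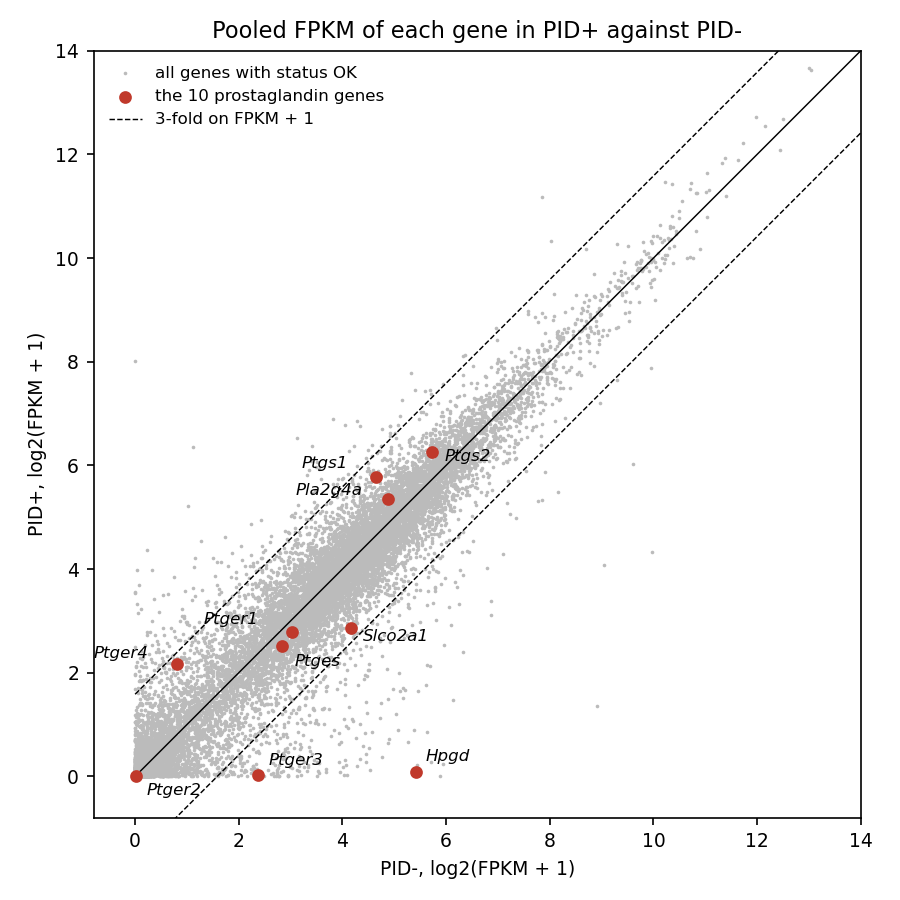
FPKM of each gene with status OK in PID+ against PID-, both as log2(FPKM + 1), with the 10 prostaglandin genes in red. The solid line marks equal values and the dashed lines 3-fold; Hpgd at -5.32 and Ptger3 at -2.36 lie below the lower dashed line, and the other 8 lie between the lines.

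The neighbours of Hpgd on chromosome 8 had smaller differences. Of the 10 nearest genes in the table, 5 on each side, 3 reached an FPKM of 2. Cep44 had 16.1 in PID- and 11.0 in PID+, and Fbxo8, beside it, had 14.1 and 9.02. Sap30 had 17.5 in PID- and 18.0 in PID+. The log2 changes of these genes were -0.51, -0.59 and 0.04, where Hpgd was at -5.32. The other 7 neighbours were below an FPKM of 1 in both groups. The median log2 change of chromosome 8, over its 525 genes whose mean FPKM was 5 or more, was -0.13, and with it subtracted Hpgd was at -5.19. Beside Ptger3 on chromosome 3, Zranb2 had 43.6 in PID- and 53.7 in PID+, and on the other side Cth had 17.1 and 5.77.

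**Figure D3:**
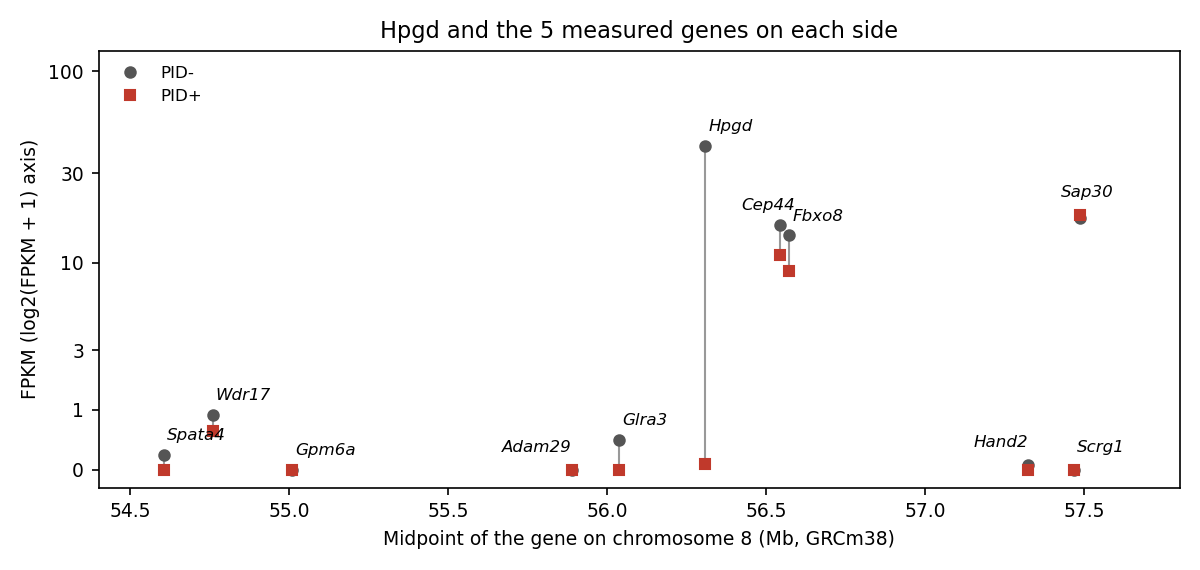
FPKM, on a log2(FPKM + 1) axis, of Hpgd and the 5 measured genes on each side, by the midpoint of each gene on chromosome 8 (Mb, GRCm38), in PID- (grey circles) and PID+ (red squares). Hpgd goes from 41.5 to 0.0667, while Cep44 goes from 16.1 to 11.0 and Sap30 from 17.5 to 18.0.

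The genes nearest to Hpgd by Euclidean distance over log2(FPKM + 1) in PID- and PID+, which are only 2 values, were Krt83, Ugt2b34, Gm11032, Nrn1 and Prl2c2. The distances ran from 0.134 to 0.587. Krt83, a hair keratin, stood at 42.4 in PID- and 0.168 in PID+. Ugt2b34, a UDP-glucuronosyltransferase, had 51.6 and 0.204. Nrn1 had 60.8 and 0.173, and Prl2c2 had 37.7 and 0.585. Gm11032 was listed at 0 in PID+ and at 58.0 in PID-, with an interval from 0 to 194.

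The wider pathway was described with 10 lists. Of the 10 genes, 8 also appear in them, and Ptgs1 and Ptgs2 are in none. Of 15 genes for breakdown and transport, 12 reached an FPKM of 2, and of these 2 were at least 3-fold lower, 1 was at least 3-fold higher, and the median log2 change was -0.22. Among all genes that could reach 3-fold, 3.42% were lower and 2.08% higher. With equal Gapdh, 4 of the 12 were lower, 0 were higher, and the median was -0.79, where all 11035 genes had 662 lower, 76 higher and a median of -0.58. The lower ones as deposited were Hpgd and Acot2, a mitochondrial acyl-CoA thioesterase, at 4.73 in PID- and 0.574 in PID+. The higher one was the organic anion transporter Slco4a1, with 1.07 in PID- and 6.57 in PID+, which fell short of 3-fold with equal Gapdh. Zadh2, the most abundant of the list by mean FPKM of both groups, had 27.2 in PID- and 22.4 in PID+.

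Among 12 prostanoid receptors and related genes, 6 reached an FPKM of 2, and Ptger3 was the only one at least 3-fold lower or higher. Their median log2 change was -0.47, and -0.71 without Ptger1. Receptors for the other prostanoids (Ptgdr, Ptgdr2, Ptgfr, Ptgir and Tbxa2r) were below 1 in both groups. Ptgfrn, a membrane protein that binds the prostaglandin F receptor, was the most abundant, at 45.9 in PID- and 41.5 in PID+, and the nuclear receptor Ppard had 18.3 and 10.7. Of 13 terminal synthases and reductases, 6 reached an FPKM of 2, with a median of -0.24 and 0 past 3-fold. Their median was -0.78 with equal Gapdh and -0.10 with chromosome medians subtracted. The synthases of prostaglandin D2 (Ptgds and Hpgds), prostacyclin (Ptgis) and thromboxane (Tbxas1) were below 1 in both groups. The aldose reductase Akr1b3 had 51.8 in PID- and 90.0 in PID+.

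Of 21 phospholipases A2 and annexin, 7 reached an FPKM of 2, with a median log2 change of 0.10 and 0 past 3-fold. The platelet-activating factor acetylhydrolase Pla2g7, at 12.2 in PID- and 3.40 in PID+, lay just short of it with -1.58, and past it with equal totals or equal Gapdh. Anxa1, a phospholipid-binding protein known to restrain inflammation, had 955 in PID- and 1102 in PID+. Of 18 genes for arachidonate supply and re-esterification, 15 reached an FPKM of 2, with a median of 0.19 and 0 past 3-fold. The acyl-CoA synthetases Acsl5 and Acsl3 were the most abundant of this list by mean FPKM of both groups. Acsl5 had 86.0 in PID- and 133 in PID+, and Acsl3 had 48.2 and 92.1. With equal Gapdh the medians of these lists were -0.46 and -0.33, where that of all genes was -0.58, and with chromosome medians subtracted that of the phospholipases was -0.10.

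Of 17 genes of the lipoxygenase and leukotriene branch, 4 reached an FPKM of 2, with a median of -0.46 and 0 past 3-fold. Their median was -1.07 with equal Gapdh, where that of all genes was -0.58. Mgst3 had 69.2 in PID- and 42.6 in PID+, and Lta4h, leukotriene A4 hydrolase, had 48.0 and 40.6. Of 11 measured epoxygenases and epoxide hydrolases, 4 reached an FPKM of 2, and the median was -0.82, or -1.43 with equal Gapdh. Cyp2j6, a cytochrome P450 that can epoxidize arachidonic acid, was at least 3-fold lower, with 8.80 in PID- and 1.86 in PID+, and fell short of 3-fold with the chromosome median subtracted. As deposited it was the only one of the 4 past 3-fold, where 377 of all 11035 genes (3.42%) were at least 3-fold lower. With equal totals or equal Gapdh, 2 of the 4 were past it, where 406 and 662 of all 11035 genes were lower. The microsomal epoxide hydrolase Ephx1 had 146 in PID- and 51.0 in PID+, and the soluble Ephx2 had 31.9 and 28.6.

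Downstream of EP2 and EP4, 18 of 22 genes of cAMP signalling reached an FPKM of 2, with a median of -0.03, 10 below 0 and 8 above. The median was -0.54 with equal Gapdh, with 16 below 0 and 2 above, where that of all genes was -0.58. Arrb1, which encodes beta-arrestin-1, was at least 3-fold lower, with 18.2 in PID- and 4.95 in PID+, and both intervals reached 0. It was the only one of the 18 past 3-fold, where 377 of all 11035 genes (3.42%) were at least 3-fold lower. Gnas, the Gs alpha subunit, had 419 in PID- and 336 in PID+, and Prkar1a, a regulatory subunit of protein kinase A, had 97.8 and 80.4. Of 14 short-chain dehydrogenases and related enzymes, the kind of enzyme that Hpgd is, 8 reached an FPKM of 2, with a median of -0.46. Their median was -1.02 with equal Gapdh. Dhrs3, which reduces retinal, was at least 3-fold lower, with 79.2 in PID- (26.1 to 132) and 13.7 in PID+ (0 to 28.1). It was the only one of the 8 past 3-fold, against 3.42% of all genes that were at least 3-fold lower. Rdh10, which oxidizes retinol to retinal, had 59.9 in PID- and 129 in PID+, and Hsd17b11 had 131 and 80.8.

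Of 18 measured regulators of Ptgs2 and Ptges, 15 reached an FPKM of 2, with a median of -0.13 and 0 past 3-fold. With equal Gapdh, 2 of the 15 were at least 3-fold lower, against 662 of all 11035 genes, and the median was -0.63, near the -0.58 of all genes. Egr1 had 21.4 in PID- and 7.22 in PID+, a log2 change of -1.45, and Fos had 3.52 and 10.4, a log2 change of 1.34. Il1rn, the interleukin-1 receptor antagonist, had 52.3 in PID- and 21.7 in PID+. Rela, a subunit of NF-kB, had 40.0 and 35.5. The 10 lists and the 10 genes together hold 163 measured genes. Hpgd was the only one of them whose deposited intervals were apart, while 5 of the marker genes below also had intervals apart. Among all 21959 genes, 119 (0.542%) had intervals apart and were lower, and 41 (0.187%) were higher. Hpgd was chosen for its low value, so nothing is read from this count.

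The cells were checked against marker genes. Of 10 epithelial markers, 9 reached an FPKM of 2, the highest by mean FPKM of both groups being Krt19 at 2073 in PID- and 2469 in PID+, where Krt18 and Krt8 stood above it at 2843 and 2745. The summed FPKM was 5346 in PID- and 9780 in PID+. Epcam had 124 in PID- and 401 in PID+, and Cldn7 had 79.4 and 274, both at least 3-fold higher as deposited and neither with equal Gapdh. Of all 11035 genes that could reach 3-fold, 229 (2.08%) were at least 3-fold higher as deposited and 76 with equal Gapdh. All 9 were higher in PID+ as deposited, where 5446 of all 11035 genes were. Scaled to equal Gapdh, 7 of the 9 were higher, where 1631 of all 11035 genes were. Vil1 was below 1 in both groups. Of 12 colonocyte markers, 7 were below 1 in both groups, and Alpi, Car4, Cdx1, Guca2a and Slc9a3 were listed at 0 in both. The summed FPKM was 212 in PID- and 117 in PID+, most of it from Car2, at 169 and 113. Cdh17 had 25.9 in PID- and 1.67 in PID+, Cdx2 had 8.04 and 0.542, and Car1 had 5.55 in PID- and was listed at 0 in PID+. These 3 of the 5 that reached an FPKM of 2 were at least 3-fold lower, against 3.42% of all such genes, and the intervals of Cdh17 were apart. Hpgd and Slco2a1 were thus lower in the same group as these colonocyte markers, whose part in the result was not tested. In bulk RNA, fewer cells of a type and less RNA per cell cannot be told apart.

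Markers of fibroblasts and pericytes were also lower in PID+. Of 14 such genes, 8 reached an FPKM of 2, and 6 of these were at least 3-fold lower, against 3.42% of all genes that did. The intervals of Vim, Col1a2 and Col6a1 were apart. The summed FPKM was 1061 in PID- and 28.8 in PID+, most of it from Vim, at 997 and 19.1. Vim is also made by epithelial cells with mesenchymal features. Besides Vim, these were Col1a1 with 11.9 in PID- and 2.32 in PID+, Col1a2 with 11.9 and 0.0654, Col3a1 with 6.35 and 0.339, Col6a1 with 17.5 and 1.09, and Dcn with 2.39 and 0. Pdgfra, Pdgfrb, Thy1, Des and Rgs5 were below 1 in both groups, and Lum was listed at 0 in both. The part of these genes in the values of Hpgd, Slco2a1 and Ptger3 was not tested.

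Most markers of other cell types were at or near 0. Of 10 markers of macrophages and monocytes, 8 were below 1 in both groups, Ptprc and Csf1r among them, with C1qa and C1qb listed at 0. The summed FPKM was 46.0 in PID- and 51.6 in PID+, nearly all of it from Cd14 and Cd68. Of 10 markers of mast cells and basophils, 9 were below 1, with Cpa3, Fcer1a, Ms4a2, Tpsab1 and Tpsb2 listed at 0. The exception was Mcpt8, at 9.60 in PID- and 82.5 in PID+, with intervals apart, which made up most of the sums of 10.5 and 83.3. Of 9 endothelial markers, 7 were below 1, and the sums were 1.96 and 5.27, led by Kdr, with Cldn5 listed at 0. Of 9 tuft cell markers, 7 were below 1, Pou2f3 and Trpm5 among them. The list holds Ptgs1, which gave most of its sums of 27.3 in PID- and 56.4 in PID+. All 8 lymphocyte markers were below 1, with sums of 0.0485 and 0.156, most of the latter from Cd79a at 0.0250 in PID- and 0.126 in PID+, and with Cd3d, Cd3e, Cd4 and Nkg7 listed at 0.

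Promoter sequences from RefSeq (GRCm38.p6), 250 bases before to 50 after the annotated start, were found for 9 of the 10 genes, with 10 windows, since Pla2g4a has several starts. Ptger1 had no entry. The starts are those of RefSeq, which for Hpgd and Slco2a1, among others, differ from the start of the gene in Gencode. The windows were searched on both strands for CAGGTG, the E-box bound by Snai and Zeb factors, and for 4 other motifs. The E-box stood in 4 of the 10 windows, those of Hpgd, Ptgs2, Slco2a1 and Ptger3, and in 20.2% of all 32851 promoter windows. The genes with it had log2 changes of -5.32, 0.52, -1.29 and -2.36, in the order named. Those with a window but without it were Ptgs1 at 1.13, Ptges at -0.31, Pla2g4a at 0.48, Ptger2 at -0.03 and Ptger4 at 1.37. The genes were selected on this same comparison, so nothing is read from these values, and a role of the motif was not tested. The letters TATAAA, searched for the TATA box, stood in 3 windows, those of Hpgd, Slco2a1 and a start of Pla2g4a, against 13.6% of all. Counted from the RefSeq start, the matches lay at 4 in Hpgd, -29 in Slco2a1 and -200 in Pla2g4a. That of Hpgd, at chr8:56294556-56294561, lies before the Gencode start of the gene at 56294585. The match in Pla2g4a is on the strand opposite to the gene. The cAMP response element was searched as TGACGTCA, which 1.79% of all windows hold. AP-1 sites were searched as TGANTCA, which 7.81% hold. The core of TCF/LEF sites was searched as TCAAAG, which 16.0% hold. These 3 stood in 0 of the 10 windows. A match is only these letters in this window.

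The 250 bases before the start are shown for Hpgd (chr8:56294302-56294551, plus strand), the gene with the largest difference, and for Ptgs2 (chr1:150099781-150100030, plus strand), the most abundant of the genes. Capitals mark CAGGTG, which reads CACCTG where the match is on the minus strand. The TATAAA of Hpgd lies just past the end of the bases shown.
Hpgd: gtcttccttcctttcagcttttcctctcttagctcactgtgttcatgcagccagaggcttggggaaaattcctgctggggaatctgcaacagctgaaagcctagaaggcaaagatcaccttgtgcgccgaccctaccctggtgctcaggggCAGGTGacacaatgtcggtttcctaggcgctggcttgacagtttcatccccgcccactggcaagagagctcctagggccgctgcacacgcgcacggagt
Ptgs2: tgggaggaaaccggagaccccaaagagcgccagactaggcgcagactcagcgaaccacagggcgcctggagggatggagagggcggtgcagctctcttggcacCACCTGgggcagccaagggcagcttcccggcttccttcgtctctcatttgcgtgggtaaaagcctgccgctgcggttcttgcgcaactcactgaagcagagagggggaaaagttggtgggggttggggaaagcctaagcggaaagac

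The bases around CAGGTG are shown in the same way for Slco2a1 (chr9:103008333-103008378, plus strand) and Ptger3 (chr3:157566750-157566795, plus strand), the other genes with a match, chosen after their values were seen.
Slco2a1: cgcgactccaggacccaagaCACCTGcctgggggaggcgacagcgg
Ptger3: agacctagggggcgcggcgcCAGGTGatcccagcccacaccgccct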

How the data were processed

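RNA was poly(A)-selected and sequenced after TruSeq V2 preparation, in 3 samples per group. The authors cleaned the reads with CutAdapt, ran TopHat on GRCm38.p3 with known protein-coding genes, pooled the 3 read sets of each group, and deposited CuffDiff FPKM with confidence intervals, whose level is not given in the sources used here. Table rows labelled treated are PID+ here, from the sample labels. Of 21966 genes, 7 with a status other than OK were left out. Symbols matched 21734 identifiers. Positions and exons came from Gencode M21.

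Computed here were log2 changes with a pseudocount of 1, calls at 3-fold and at intervals that do not overlap, and reads per FPKM, with the best of 31 length corrections. The pooled values allow no test. Reads of genes with several transcripts are approximate.

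The 10 genes and all lists were chosen with earlier results of these data known. Named genes were, per list, the 2 most abundant, those past 3-fold or with intervals apart, and, for markers, the most abundant and those at 0 in both groups. Abundance ranks are by mean FPKM. Others (Pla2g7, Egr1, Fos, Ptges2, Ptgr1, Ptgr2, overlapping genes, neighbouring genes, and further markers and genes below 1) were added with their values known. Of the list genes, 2 (Cyp2c44 and Cebpd) had no row under that symbol. A result bearing on the value of Ptger1 is not reported here. Alternatives were a pseudocount of 0.1, equal totals, equal upper quartiles, equal Gapdh, chromosome medians subtracted, mean FPKM of at least 1 or 5, and intervals apart. Orders and medians without Ptger1 were added after the values were seen. Only the 3-fold calls and the fit of the read value were tested on simulated data. The simulation raised low FPKM of PID- to 5 and used no length correction, so it did not cover low values or the other steps. Software was matplotlib 3.10.9, scipy 1.17.1, pandas 2.3.3, numpy 2.4.6 and Python 3.11.15.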

Additional observations from a re-analysis of the deposited data

How the results depend on the processing

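The log2 change of Hpgd stayed between -5.35 and -5.19 under each alternative but the pseudocount of 0.1, where it was -7.96, since a smaller pseudocount stretches changes that end near 0. Over the 10 genes, the median stayed below 0 under the 7 alternatives set beforehand, but as deposited its sign rests on Ptger1 and Ptger2. With the filters on mean FPKM it was -0.24, the value of Ptger1 itself. With Ptger1 left out, added later, it was -0.03, the value of Ptger2, and 0.09 over the 8 others that reached an FPKM of 2. With the pseudocount of 0.1, 1 of the 10 (Ptger4) was at least 3-fold higher, and 795 genes were at least 3-fold lower and 621 higher, in place of 377 and 229. With equal Gapdh, 662 genes were lower and 76 higher, and 3 of the 10 genes were lower. With a mean FPKM of at least 5, which leaves out Ptger3, 1 of the 10 genes was lower, with 221 genes lower and 144 higher in all. With intervals apart, 1 of the 10 was lower, with 119 genes lower and 41 higher. The cause was not tested beyond the fewer genes that the filter leaves. Ptgs2 and Pla2g4a changed sign with equal Gapdh; the other 8 genes kept their sign under each alternative that gave a value. Ptger2 fell out under both filters, and Ptger3 and Ptger4 under that at 5.

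No paired analysis was possible because each group has a single pooled value. Leaving out samples was not possible either. The intervals do not hold the differences between mice, so no difference here has a replicate check. Estimated reads give relative depth only.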
